A study of Mus musculus with 19 samples.

Results

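Gm47761 and Gm50136 are 2 mouse long noncoding RNA genes, and their levels were followed in liver RNA-seq of 19 mice. They are 2 of the 55836 genes in the count table and 2 of the 13597 genes with enough counts to be tested. Both were selected on an earlier result of these same libraries: they had the second and the third largest rise in CD + PE against CD + Veh among the genes called there. That ranking took only genes whose higher group had a mean of 5 CPM (counts per 1000000) or more and whose libraries did not overlap between the groups. Their values in that comparison, and in every other comparison that uses those libraries, are therefore given as a description and without a test. The comparison of MD + PE with MD + Veh has other libraries on both sides and is tested. Its estimate of the spread between mice was shared by all 4 groups, so the test is not wholly independent of the libraries that chose the genes. A fit on these 2 groups alone is given beside it.

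All mice were wild-type male C57BL/6, aged 8 weeks at the start. CD + Veh (n = 4) received a control diet, labelled as chow, and a daily oral gavage of 0.1% Tween 20 in water. CD + PE (n = 5) received that diet and, in the same vehicle, 2 mg of polyethylene (PE) microplastic particles of 10 to 150 μm per mouse per day. MD + Veh (n = 5) and MD + PE (n = 5) received a diet that models metabolic dysfunction-associated steatohepatitis (MASH), rich in fat, fructose and cholesterol, with the vehicle gavage and the PE gavage respectively. Diet and gavage lasted 8 weeks, each library is 1 mouse, and the liver was sequenced as bulk tissue, in which fewer cells of a type and less RNA per cell cannot be told apart. Albumin mRNA was at 30524 CPM or more in every library, so hepatocyte RNA was present throughout.

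Libraries held 10398820 to 15456729 estimated counts. The median was 15089732 in CD + Veh, 14790140 in MD + Veh, 10837229 in CD + PE and 11615001 in MD + PE, so PE libraries were the shallower ones. A second division crosses the groups. Libraries are numbered 39 to 57, and some ribosomal protein pseudogenes split them between numbers 45 and 46: Rps6-ps4 was at 70.1 CPM or more in libraries 39 to 45 and at 0 in libraries 46 to 57. The first side holds the 4 CD + Veh libraries and MD + Veh 1 to 3, and the second holds MD + Veh 4 and 5 and all 10 PE libraries. PE and this division cannot be told apart in mice on CD, and only MD + Veh has libraries on both sides. The study's methods describe 1 sequencing run of the pooled libraries and 1 quantification of all reads, and they do not mention this division. Whether both sides were quantified with the same reference was not tested. Nor was it tested whether estimated counts are on 1 basis across the division, above all those of a gene that shares reads with copies.

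Long noncoding RNAs are transcripts that are not translated into a known protein. Some act on genes next to them, some act elsewhere in the cell, and for many no role is known. The symbols beginning with Gm are provisional names of predicted gene models, and no function is taken as known here for either gene. Where a transcript has near-identical copies elsewhere in the genome, as transcripts from transposable elements often do, sequencing reads cannot be assigned to 1 locus with certainty.

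In GRCm39, Gm50136 (ENSMUSG00000118155) lies on the plus strand at chr19:23038740-23046121. It has 29 annotated transcripts, and the canonical one has 3 exons of 445, 119 and 448 bases. Gm50136 runs antisense to another long noncoding RNA gene, C330002G04Rik, and 1030 of its 3667 exonic bases (28.1%) lie opposite exons of that gene. Stretches from both ends of exon 1 of the canonical transcript, read from the genome, are shown because they mark where this overlap lies and ends. The first is the start of exon 1, at chr19:23038740-23038859. The second is bases 386 to 505 of the transcript, which cross from exon 1 into exon 2. Capitals mark bases opposite an exon of C330002G04Rik.
Start of Gm50136: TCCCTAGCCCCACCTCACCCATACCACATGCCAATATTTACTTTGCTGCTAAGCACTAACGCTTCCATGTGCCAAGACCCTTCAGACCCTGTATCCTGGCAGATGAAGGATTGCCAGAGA
Exon edge of Gm50136: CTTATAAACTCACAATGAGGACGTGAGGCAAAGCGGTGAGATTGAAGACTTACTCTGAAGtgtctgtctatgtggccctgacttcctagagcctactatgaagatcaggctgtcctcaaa
In this canonical transcript of 1012 bases, the overlap covers the 445 bases of exon 1 and stops at its end. The other overlapping bases belong to other transcripts of Gm50136. C330002G04Rik itself held 8 counts over the 19 libraries, against 5070 for Gm50136. The study's methods name a stranded library kit with the library type detected by the software. The labels do not mention strand.

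Gm47761 (ENSMUSG00000112478) lies on the minus strand at chr10:17193833-17198976, with 2 transcripts, of which the canonical one has 3 exons and 3093 bases. It sits within the span of Gm47760, on the same strand, and shares 0 exonic bases with it. Gm47761 is 1 of many near-identical copies. At 95% identity or more, its canonical transcript matched the genome 54 times over at least 1800 bases, on 20 chromosomes or scaffolds, its own locus included. Over at least 400 bases it had 165 matches, and Gm50136, whose exons are shorter, had 2, both of them its own exons. Gm42047, an annotated long noncoding RNA gene on chromosome 8, holds 2778 of its 3093 bases (89.8%), the first 495 of them without a mismatch. Further genes of the table hold shorter parts: Gm48362 (1455 bases), Gm43549 (941 bases) and Gm47939 (941 bases).

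Most of the sequence of Gm47761 is therefore not its own, and the reads that can be assigned to it alone were not counted. Of the 31-base words in its transcripts, 28.5% occur in no other gene of the table, and Gm42047 holds 65.0% of them. The median over 802 long noncoding RNA genes was 98.1%, and 49 of these had a smaller share than Gm47761. For Gm50136 the share was 99.4% on its own strand and 77.0% when both strands were counted. The counting software divides shared reads among copies by a model. The level printed for Gm47761 is that estimate, and whether its reads come from chromosome 10 was not tested.

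**Figure D1:**
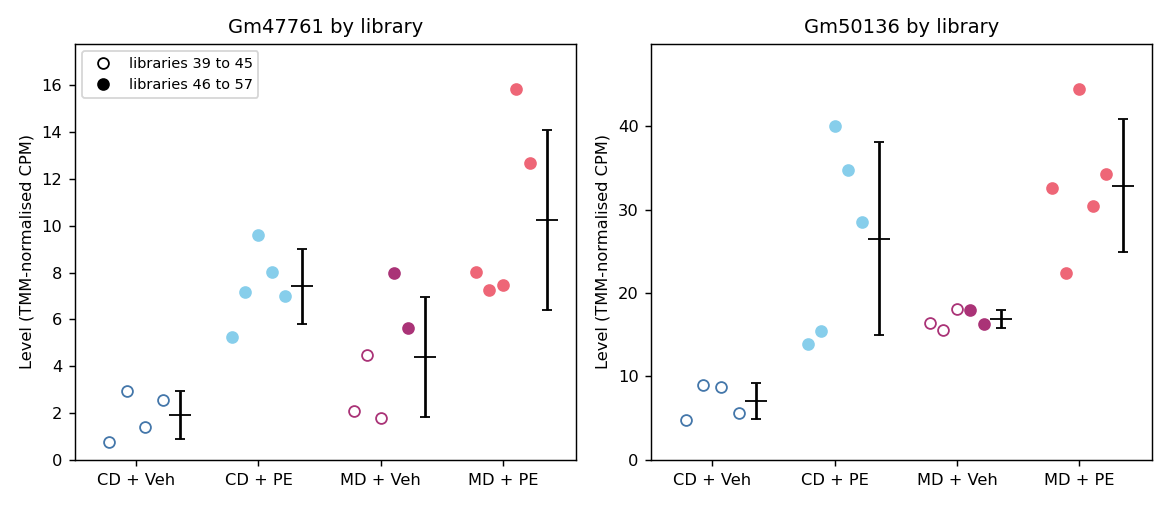
Level of Gm47761 (left) and Gm50136 (right) in each library, in TMM-normalised CPM, by group, with the mean ± SD beside the points (n = 4 in CD + Veh, n = 5 in the others). Open points are libraries 39 to 45 and filled points libraries 46 to 57: the filled MD + Veh points of Gm47761 lie above the open ones (5.64 and 7.97 against 1.77 to 4.46 CPM), and those of Gm50136 do not stand apart.

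Gm50136 was lowest in CD + Veh and highest in MD + PE. Its level in the 4 CD + Veh libraries was 4.79, 9.02, 8.72 and 5.59 CPM, from 77 to 130 counts. In CD + PE it was 13.9, 15.4, 39.99, 34.7 and 28.6 CPM. Every CD + PE library lay above every CD + Veh library, and CD + PE 1 and 2 lay far below the other 3 libraries of their group. In MD + Veh it was 16.4, 15.5, 18.1, 18.0 and 16.3 CPM, the narrowest spread of the 4 groups. In MD + PE it was 32.6, 22.4, 44.5, 30.5 and 34.3 CPM. Every MD + PE library lay above every MD + Veh library, and every MD + Veh library lay above every CD + Veh library.

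The means of Gm50136 ordered the groups as CD + Veh (7.03 ± 2.16 CPM, SD, n = 4), MD + Veh (16.9 ± 1.11 CPM, n = 5), CD + PE (26.5 ± 11.6 CPM, n = 5) and MD + PE (32.9 ± 7.95 CPM, n = 5). The neighbours MD + Veh and CD + PE overlapped in this order, as did CD + PE and MD + PE. Per kilobase of canonical transcript, these means ran from 6.95 to 32.5 CPM. Averaged over all libraries, Gm50136 ranked 46th among 763 long noncoding RNA genes by level in CPM.

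MD + PE exceeded MD + Veh in Gm50136 by 0.96 on the log2 scale (SE 0.25), and this did not pass the threshold (edgeR quasi-likelihood test, adjusted p = 0.0575 over all genes tested). The threshold was an adjusted p under 0.05 and a log2 fold change of at least 0.38 in either direction. By it, 1.08% of the 13597 genes were called in this comparison. With DESeq2, the difference in Gm50136 was 0.98 (SE 0.25) with an adjusted p of 0.00828, and 2.15% of the genes given an adjusted p were called. With edgeR, it also passed when only these 2 groups were fitted (adjusted p = 0.00964), with a replicate block (adjusted p = 0.0343) and without CD + PE 1 (adjusted p = 0.0298) or CD + PE 2 (adjusted p = 0.0402). The ranges of the 5 and 5 libraries did not overlap. How many of the 13597 genes also had separate ranges was not counted, so this is a description. MD + Veh has libraries on both sides of the library division and MD + PE does not.

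The other differences in Gm50136 are a description. CD + PE exceeded CD + Veh by 1.91 on the log2 scale (SE 0.29), MD + Veh exceeded CD + Veh by 1.26 (SE 0.28), and MD + PE exceeded CD + PE by 0.31 (SE 0.25). The last was 0.15 without CD + PE 1 and 0.51 without CD + PE 3. These comparisons share groups and are not independent. In the ranking that chose both genes, Cyp4a10, a fatty acid hydroxylase gene, stood above them with a difference of 2.45. Gm47761 followed with 1.96, then Gm50136 with 1.91, and Fam89a stood just below with 1.89.

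Only MD + Veh allows a look at Gm50136 on both sides of the library division. There its mean was 16.7 ± 1.28 CPM in libraries 1 to 3 and 17.1 ± 1.17 CPM in libraries 4 and 5, and the division itself was not tested. With the division as a covariate, which is estimated from MD + Veh alone, the difference between CD + PE and CD + Veh was 1.88 and that between MD + PE and MD + Veh was 0.94. The SE of the latter rose to 0.35 and its adjusted p to 0.421. Within libraries 46 to 57, the difference in Gm50136 between the 5 MD + PE and the 2 MD + Veh libraries was 0.95 (SE 0.38, adjusted p = 0.615 with edgeR).

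Gm47761 had lower counts, between 12 and 231 per library. Its level was 0.746, 2.94, 1.41 and 2.56 CPM in CD + Veh. In CD + PE it was 5.23, 7.19, 9.62, 8.03 and 7.01 CPM. Every CD + PE library lay above every CD + Veh library. In MD + Veh it was 2.09, 4.46, 1.77, 7.97 and 5.64 CPM. In MD + PE it was 8.04, 7.24, 7.48, 15.9 and 12.7 CPM, with MD + PE 4 and 5 high. MD + Veh overlapped with each of the other groups, since MD + Veh 1 and 3 fell within the range of CD + Veh, and MD + Veh 4 reached into those of CD + PE and MD + PE.

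The order of the groups in Gm47761 was the same as in Gm50136. Its mean was 1.91 ± 1.01 CPM in CD + Veh (SD, n = 4), 4.39 ± 2.58 CPM in MD + Veh (n = 5), 7.42 ± 1.60 CPM in CD + PE (n = 5) and 10.3 ± 3.84 CPM in MD + PE (n = 5). No pair of neighbours in this order was separated in range. Per kilobase of canonical transcript the means ran from 0.618 to 3.32 CPM, below those of Gm50136 in every group.

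MD + PE exceeded MD + Veh in Gm47761 by 1.24 on the log2 scale (SE 0.37), and this did not pass the threshold (edgeR, adjusted p = 0.0978). Fitted on these 2 groups alone, it was 1.26 (adjusted p = 0.162). DESeq2 gave a difference of 1.24 with an adjusted p of 0.0339, which passed. With edgeR, the difference also passed with a replicate block (1.31, adjusted p = 0.0275) and without MD + Veh 4 (1.56, adjusted p = 0.0346). As a description, CD + PE exceeded CD + Veh by 1.96 (SE 0.43), MD + Veh exceeded CD + Veh by 1.19 (SE 0.43) and MD + PE exceeded CD + PE by 0.47 (SE 0.36). The last was 0.27 without MD + PE 4.

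In Gm47761 the MD + Veh libraries of the sides did not overlap. The mean was 2.77 ± 1.47 CPM in libraries 1 to 3 and 6.81 ± 1.65 CPM in libraries 4 and 5. Other RNA also separated MD + Veh 1 to 3 from MD + Veh 4 and 5. The summed level of 5 red blood cell markers, none at 0, was 516, 745 and 420 CPM in MD + Veh 1 to 3, led by Hba-a1, and 211 and 183 CPM in MD + Veh 4 and 5, led by Alas2. That of 8 skeletal muscle markers was 3078, 194 and 139 CPM against 16.5 and 2.63 CPM. Of the 12 lists, those of stellate cells (503, 280 and 236 against 189 and 213 CPM) and lipid-associated macrophages (243, 132 and 123 against 81.3 and 88.0 CPM) also split this way. Both were highest in MD + Veh 1, the library with the most muscle marker RNA, where Des and Lpl led them. Whether these sums are RNA of the cells named was not tested. Intestinal epithelium markers split the other way, with 13.07 CPM in MD + Veh 2 and 13.16 CPM in MD + Veh 4 as the nearest values. How many lists would split by chance was not worked out. Among libraries 46 to 57, the red blood cell markers reached 330 CPM in MD + PE 4 and 443 CPM in CD + PE 2, both led by Hba-a1. With 3 and 2 libraries, neither the division nor the part of this RNA was tested. With the division as a covariate, its difference between CD + PE and CD + Veh was 0.67 (SE 0.59) and that between MD + PE and MD + Veh was 0.59 (SE 0.42, adjusted p = 0.713 with edgeR). The difference in Gm47761 between MD + Veh and CD + Veh also became smaller with this covariate, as given under How the results depend on the processing. Within libraries 46 to 57, MD + PE exceeded MD + Veh in Gm47761 by 0.61 (SE 0.32, adjusted p = 0.689). Which part of the difference between vehicle and PE libraries belongs to PE was not tested, and in mice on CD it cannot be told apart from the division.

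**Figure D2:**
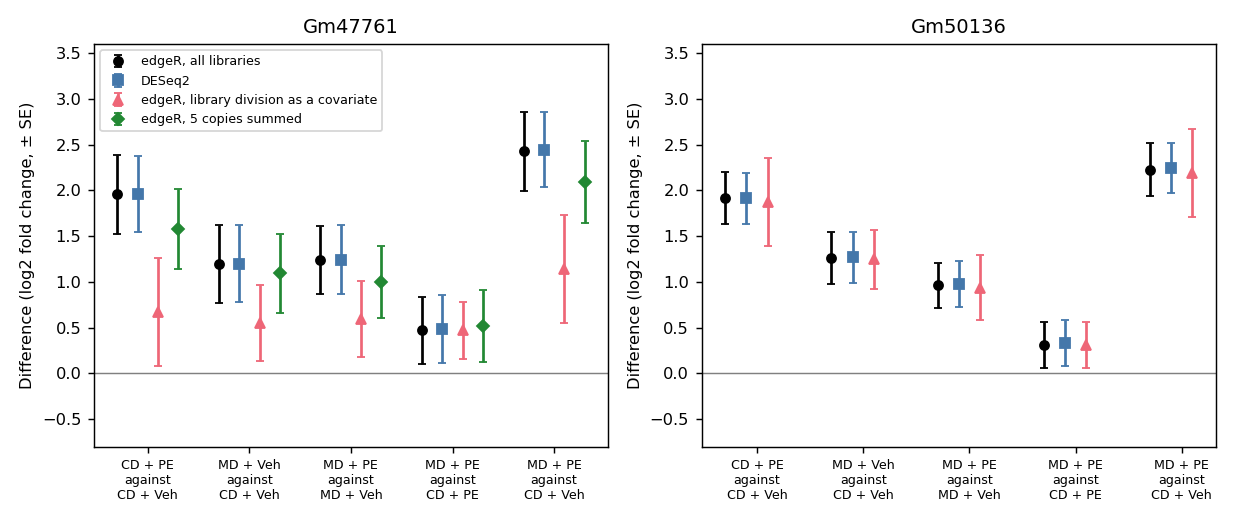
Difference in Gm47761 (left) and Gm50136 (right) between groups, as log2 fold change ± SE, for 5 comparisons and up to 4 ways of fitting. With the library division as a covariate the difference between CD + PE and CD + Veh was 0.67 in Gm47761 and 1.88 in Gm50136, against 1.96 and 1.91 without it.

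Among the copies in the table, Gm42047 carried most of the counts, with 21128 over the 19 libraries against 1467 for Gm47761. Of the 6001 31-base words in the transcripts of Gm42047, 2236 are shared with Gm47761, so its counts can also come from other sequence. The level of Gm42047 was 14.2, 47.6, 25.0 and 45.9 CPM in CD + Veh, and 57.2, 90.7, 143, 89.9 and 106 CPM in CD + PE. It was 36.3, 75.8, 41.2, 121 and 80.5 CPM in MD + Veh, and 93.0, 85.6, 73.5, 264 and 181 CPM in MD + PE. The libraries with high Gm47761 were the libraries with high Gm42047, MD + PE 4 and 5 and MD + Veh 4 among them. Over the 19 libraries, Pearson's r of the 2 genes on log2 CPM was 0.97 (Spearman's rho 0.93), the highest among the 13596 other genes tested. It was 0.95 after group means were taken off. Both genes share reads and depth, so these r values are a description.

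**Figure D3:**
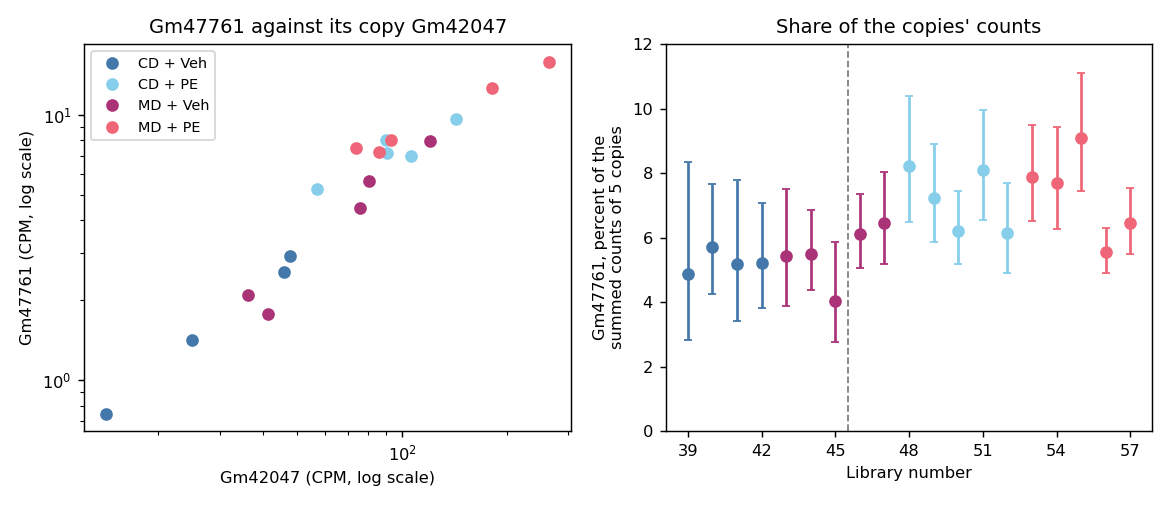
Left, level of Gm47761 against that of its copy Gm42047, both in CPM on log axes, 1 point per library. Right, counts of Gm47761 as a percent of the summed counts of Gm47761 and its 4 copies in the table, by library number, with 95% Wilson intervals that cover counting error only; the dashed line is the division between libraries 45 and 46, with 4.04% to 5.72% before it and 5.56% to 9.10% after it.

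The part of these counts given to Gm47761 overlapped between the sides of the division, and the difference was not tested. It was 4.04% to 5.72% of the summed counts of the 5 copies in libraries 39 to 45 (median 5.21%) and 5.56% to 9.10% in libraries 46 to 57 (median 6.85%). Within MD + Veh, libraries 1 to 3 had 5.42%, 5.48% and 4.04%, and libraries 4 and 5 had 6.12% and 6.46%, with counting intervals that overlapped (4.37% to 6.84% in MD + Veh 2 and 5.07% to 7.36% in MD + Veh 4). The summed level of the 5 copies in MD + Veh was 54.6 ± 23.3 CPM in libraries 1 to 3 and 109 ± 30.4 CPM in libraries 4 and 5. Summed to 1 row, the 5 copies differed by less than Gm47761 alone: CD + PE exceeded CD + Veh by 1.57 (SE 0.44) and MD + PE exceeded MD + Veh by 1.00 (SE 0.39, adjusted p = 0.216 with edgeR). For Gm42047 alone, MD + PE exceeded MD + Veh by 0.98 (SE 0.40, adjusted p = 0.231).

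Libraries also differed in RNA of other tissues. The skeletal muscle markers, led by Acta1, summed to 3078 CPM in MD + Veh 1 and 422 CPM in CD + PE 1, where none of the 8 was at 0, and to 1.06 to 194 CPM in the other libraries. Without MD + Veh 1, MD + PE exceeded MD + Veh by 1.07 in Gm47761 and by 0.96 in Gm50136, and without CD + PE 1, CD + PE exceeded CD + Veh by 2.08 and 2.09. In MD + PE 2, the summed level of 7 intestinal epithelium markers, led by Lgals4, was 132 CPM, against 8.73 to 28.9 CPM elsewhere, and that of 6 bile duct markers was 175 CPM. MD + PE 2 was the MD + PE library with the lowest Gm47761 and Gm50136. Without it the difference between MD + PE and MD + Veh in Gm50136 was 1.07. MD + PE 4, the library with the highest Gm47761 and Gm42047, had 107 CPM of the bile duct markers and 244 CPM of 5 lipid-associated macrophage markers, both led by Spp1, which is on both lists, against 86.2 to 94.9 CPM of the latter in the other MD + PE libraries and 243 CPM in MD + Veh 1, where Lpl led. Its 6 stellate cell markers, led by Dcn, summed to 446 CPM, and those of MD + Veh 1, led by Des, to 503 CPM. Without MD + PE 4, MD + PE exceeded MD + Veh by 1.03 in Gm47761 and by 1.00 in Gm50136 (edgeR, adjusted p = 0.216 and 0.0900). In CD + PE 2, the summed level of 5 Kupffer cell markers, led by Marco, was 569 CPM, against 63.4 to 96.1 CPM in the other CD + PE libraries. Without it, CD + PE exceeded CD + Veh by 1.97 in Gm47761 and by 2.06 in Gm50136. None of these macrophage, stellate and Kupffer cell markers was at 0 in the libraries named. Some lists also differed by diet. The 7 hepatocyte markers, led by Alb, summed to 74238 to 91197 CPM in CD + Veh and 53700 to 68551 CPM in MD + Veh, and to 67874 to 98874 CPM in CD + PE and 53000 to 70035 CPM in MD + PE, where the ranges overlapped. The Kupffer cell markers summed to 76.4 to 139 CPM in CD + Veh and 158 to 249 CPM in MD + Veh, and to 124 to 240 CPM in MD + PE. The range of CD + PE covered that of MD + PE only through CD + PE 2 (569 CPM). The other CD + PE libraries, at 63.4 to 96.1 CPM, lay below every MD + PE library. The sum of 5 adipocyte markers, led by Cfd, was 0.201 to 2.87 CPM in CD + Veh and 79.5 to 225 CPM in MD + Veh, where 4 of the 5 were at 0 in MD + Veh 4 and 5. It was 0.502 to 2.12 CPM in CD + PE and 68.4 to 211 CPM in MD + PE. The part of this RNA in the results was not tested.

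**Figure D4:**
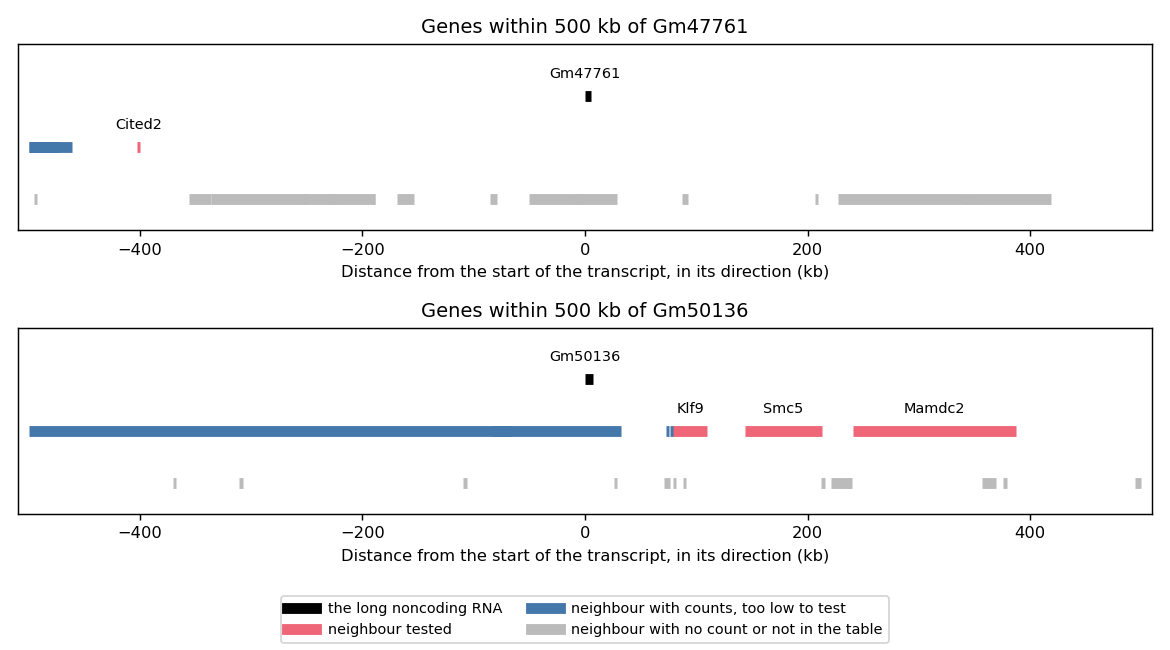
Annotated genes within 500 kb of Gm47761 (top) and Gm50136 (bottom), by distance in kb from the start of each transcript in its own direction. Of the 38 annotated genes 4 had enough counts to be tested: Cited2 near Gm47761, and Klf9, Smc5 and Mamdc2 near Gm50136.

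Within 500 kb, 18 annotated genes surround Gm47761 and 20 surround Gm50136. Of these, 3 and 7 held at least 1 count, and 1 and 3 were tested. Near Gm50136, the nearest tested gene is Klf9, 72.1 kb away, which encodes a Krüppel-like transcription factor induced by glucocorticoids. Smc5, a subunit of the SMC5/6 complex of chromosome maintenance, lies 137 kb away, and Mamdc2 lies 234 kb away. Trpm3, an ion channel gene 66.0 kb away on the other side, held 8 counts in all, Gm56639 and Gm56648 were also too low to be tested, and C330002G04Rik overlaps Gm50136. Near Gm47761, the tested gene is Cited2, a transcriptional co-regulator, 400 kb away. Gm20655 and Txlnb lie farther off, and Txlnb, a muscle gene, reached 494 counts in MD + Veh 1, the library with the most muscle marker RNA.

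None of the 4 tested neighbours was called in CD + PE against CD + Veh (edgeR), where 2.92% of all genes tested were called. At an unadjusted p under 0.05 there was 1, against 17.5% of all genes, and DESeq2 called 1, against 5.28%, in both cases Klf9. None was called in MD + PE against MD + Veh, where 1 (Smc5) had an unadjusted p under 0.05, against 15.7% of all genes. DESeq2 called Txlnb there, with 494, 36, 6, 1 and 0 counts in MD + Veh and 0, 1, 0, 0 and 2 in MD + PE, so most of its counts came from MD + Veh 1. Smc5 fell in MD + Veh against CD + Veh, where 10.4% of all genes tested were called. The test of a difference between diets in the effect of PE called 0 of the 4 with edgeR and with DESeq2, against 0.00735% and 0.601% of all genes. Of the 4, Smc5 had an unadjusted p under 0.05 in it (adjusted p = 0.362, edgeR), as did 8.77% of all genes.

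Klf9 was at 97.8, 164, 100 and 99.5 CPM in CD + Veh and at 143, 142, 193, 164 and 186 CPM in CD + PE. It was at 133, 146, 161, 139 and 198 CPM in MD + Veh and at 146, 147, 199, 207 and 240 CPM in MD + PE. CD + Veh 2 lay far above the other 3 CD + Veh libraries and within the range of every other group. Klf9 differed between CD + PE and CD + Veh by 0.52 (SE 0.18, adjusted p = 0.109), between MD + Veh and CD + Veh by 0.43 (SE 0.18, adjusted p = 0.112) and between MD + PE and MD + Veh by 0.27 (SE 0.16, adjusted p = 0.451), all with edgeR. Without CD + Veh 2 the first difference was 0.74 with an adjusted p of 0.0234 and the second was 0.65 with an adjusted p of 0.0148.

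Klf9 rose in MD + PE against CD + Veh by 0.70 (SE 0.18, adjusted p = 0.00793, edgeR), where 14.6% of all genes tested were called. With the library division as a covariate, this difference in Klf9 was 0.50 (adjusted p = 0.325). Over the 19 libraries, r between Gm50136 and Klf9 on log2 CPM was 0.81 (rho 0.73), rank 32 among the 13596 other genes tested, and 0.55 after group means were taken off.

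Smc5 was at 25.2, 22.4, 22.9 and 21.7 CPM in CD + Veh and at 16.7, 15.2, 15.5, 14.9 and 18.5 CPM in MD + Veh, with no overlap. It fell by 0.51 on the log2 scale in this comparison (SE 0.09, adjusted p = 0.000515, edgeR), and by 0.54 with the library division as a covariate (adjusted p = 0.00148). Gm50136 was higher in MD + Veh than in CD + Veh. In MD + PE, Smc5 was at 21.8, 16.5, 21.6, 19.2 and 20.5 CPM, 0.30 above MD + Veh on the log2 scale (SE 0.08, adjusted p = 0.0676, edgeR). Over the 19 libraries, r between Gm50136 and Smc5 was -0.11, and 0.34 after group means were taken off. Cited2 was not called in any of these comparisons, and its r with Gm47761 was -0.13, and -0.38 after group means were taken off.

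**Figure D5:**
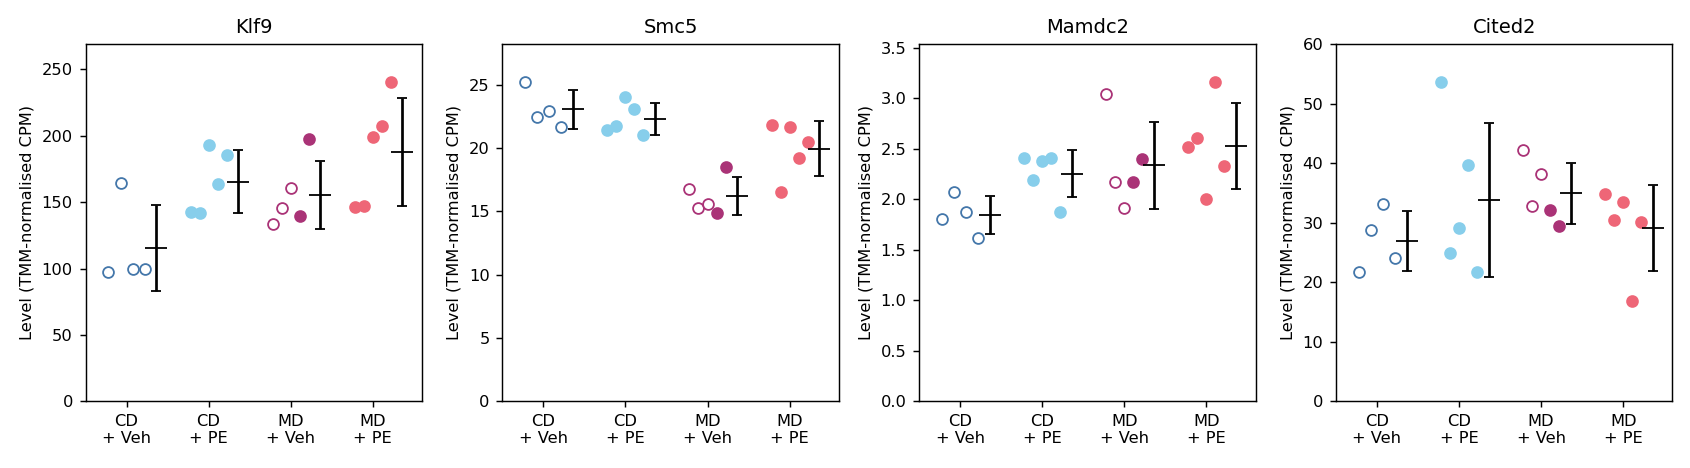
Level of the 4 tested neighbours in each library, in TMM-normalised CPM, by group, with the mean ± SD beside the points (n = 4 in CD + Veh, n = 5 in the others). Open points are libraries 39 to 45 and filled points libraries 46 to 57. CD + Veh 2 stands at 164 CPM in Klf9, and all MD + Veh points of Smc5 lie below those of CD + Veh.

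The genes whose pattern was most like that of each long noncoding RNA were found by Pearson's r on log2 CPM over the 19 libraries. The 2 genes had an r of 0.81 with each other, 0.29 after group means were taken off, and 0.56 over libraries 46 to 57. Both genes were chosen for their rise in CD + PE against CD + Veh, and those libraries enter r. Their r with each other and with other genes is therefore a description. The points of the 19 libraries share the group differences, the depth and the library division. Taking group means off removes the group differences but leaves the division within MD + Veh. Libraries 46 to 57 lie on 1 side of the division.

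For Gm50136, the 5 highest r values were those of Arl8b (0.88), a lysosomal small GTPase gene, Kansl1l (0.88), Glo1 (0.88), which encodes a glyoxalase, Crot (0.87), a peroxisomal carnitine acyltransferase gene, and Mbl1 (0.86), a mannose-binding lectin gene. The 3 lowest were those of Acaca (-0.91) and Fasn (-0.90), which encode the main enzymes of fatty acid synthesis, and Pgd (-0.90), of the pentose phosphate pathway. After group means were taken off, r was 0.47 for Arl8b, 0.72 for Kansl1l, 0.57 for Glo1, 0.29 for Crot and 0.48 for Mbl1. It was -0.52 for Acaca, -0.67 for Fasn and -0.62 for Pgd. The 5 highest were then Clk3 (0.87), Gm56893 (0.81), Nfkbia (0.80), 1600014C10Rik (0.79) and Gnptg (0.78). Before that, r was -0.21 for Clk3 and 0.04 for Gnptg.

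For Gm47761, Cald1 (0.92), which encodes the actin-binding protein caldesmon, and Mpc1 (0.90), a subunit of the mitochondrial pyruvate carrier, followed Gm42047, and then Nipsnap3b (0.84) and Bnip2 (0.84). The 3 lowest were the pseudogenes Trmt112-ps2 (-0.89), Gm12338 (-0.88) and Rps12-ps3 (-0.87). Rps12-ps3 was at 0 in all libraries 46 to 57 and at 19.5 CPM or more in libraries 39 to 45. After group means were taken off, Gm42047 (0.95) led, followed by H4c14 (0.79), 2810013P06Rik (0.79), Cald1 (0.77) and Tlcd1 (0.77, against -0.49 before). Over libraries 46 to 57 alone, r with Gm47761 was 0.94 for Gm42047, 0.91 for Cald1, 0.72 for Mpc1, 0.48 for Bnip2 and 0.20 for Nipsnap3b. It was 0.45 for H4c14, 0.34 for 2810013P06Rik and -0.37 for Tlcd1.

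Other long noncoding RNAs give the setting for these levels. Without the 2 genes, 761 long noncoding RNA genes were tested. In CD + PE against CD + Veh, 20 were called higher and 9 lower, which is 3.81% against 2.92% over all genes tested, with a median log2 difference of 0.14 against 0.01. These 29 calls fell to 1 with the library division as a covariate, to 13 without CD + PE 3 or CD + Veh 4, to 16 without CD + Veh 1 or with no filter on low counts, and to 18 without CD + Veh 2 or with only the 2 groups fitted. In MD + Veh against CD + Veh, 38 were called higher and 23 lower, which is 8.02% against 10.4% over all genes, with medians of 0.06 and -0.0042. Without CD + Veh 1, these 61 calls were 39. In MD + PE against MD + Veh, 2 were called higher and 3 lower, which is 0.657% against 1.08%, with medians of 0.04 and -0.01. These 5 calls were 12 with DESeq2, 2 with the covariate or without MD + PE 3, 3 with only the 2 groups fitted or without MD + PE 2, 4 or 5 or MD + Veh 1, and 8 without MD + Veh 4.

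A list of 25 named long noncoding RNAs, of which 21 were tested, was described in the same way. The list was chosen with earlier results of these data known, so the shares called within it are a description. In CD + PE against CD + Veh, 3 rose and 0 fell, which is 14.3% against 2.92% over all genes tested. Neat1, the scaffold RNA of nuclear paraspeckles, rose by 0.62 (SE 0.17, adjusted p = 0.0471), Mir17hg, the host transcript of a microRNA cluster, by 1.13 (SE 0.27, adjusted p = 0.0226) and Dleu2 by 0.53 (SE 0.14, adjusted p = 0.0371), all with edgeR. With the library division as a covariate, the adjusted p was 0.507 for Neat1, 0.498 for Mir17hg and 0.690 for Dleu2. An adjusted p alone does not show whether a difference became smaller or its SE larger. The call of Neat1 was also lost without any 1 of the CD + PE libraries, CD + Veh 1, 3 or 4, MD + PE 2 or 5, or MD + Veh 3 or 4 (edgeR, adjusted p up to 0.141). That of Mir17hg was lost without CD + PE 1, CD + Veh 1 or CD + Veh 4 (up to 0.0857), and that of Dleu2 without CD + PE 3, 4 or 5 or any 1 of the CD + Veh libraries (up to 0.106). In MD + Veh against CD + Veh, 3 of the 21 (14.3%) were called, against 10.4% over all genes. Neat1 rose by 0.74 (adjusted p = 0.00603), while Gm16551 fell by 1.73 (adjusted p = 0.00564) and 4833411C07Rik fell by 0.92 (adjusted p = 0.0117). The last of these calls was lost without CD + Veh 4. None of the 21 was called in MD + PE against MD + Veh with edgeR, and 5 had an unadjusted p under 0.05 there, against 15.7% of all genes. Malat1, the most abundant of the list, had a mean of 952 CPM in CD + Veh and was not called in these comparisons.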

How the data were processed

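The authors deposited estimated counts, 1 whole number for each gene and library, without normalization. They trimmed reads with fastp (0.23.4), quantified them with Salmon (1.10.3) on the GENCODE transcriptome of GRCm39 with sequence bias correction, and summed transcripts with tximport. The GENCODE release was not given in the sources used here. Libraries were poly(A)-selected. Groups came from the treatment labels. Gene models and transcripts came from GENCODE vM39 (97.9% of the table's symbols matched) and copies from BLAST (2.17.0) searches of the genome and of these transcripts at 95% identity or more. The members, gene lists and marker lists were chosen with earlier results of these data known.

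Genes were filtered with filterByExpr, normalised with TMM and tested with edgeR (4.0.16) over all 4 groups and 13597 genes, with Benjamini-Hochberg adjustment, an adjusted p under 0.05 and a log2 difference of at least 0.38. Log2 CPM used a prior count of 2. The named genes were the members, the neighbours of the 500 kb window, the genes most like each member and the named list. DESeq2 (1.42.0) and other settings were alternatives. On simulated counts for MD + PE against MD + Veh, 81% of 200 genes changed by 1.5 (log2) among 13597 were recovered, and 4.71% of calls were false. No pair of libraries of 1 group was a copy: over 36 pairs, the mean over genes of the squared difference divided by its counting variance was at least 10.4. Replicate numbers are shared by all groups but did not pair the samples. P-values measure the spread between mice.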

Additional observations from a re-analysis of the deposited data

Results flagged for a closer look

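Of 36 sets of library values of 1 gene, or of the share of Gm47761, in 1 group, 2 held a highest or lowest library whose gap to the next, as a part of the whole range, was above Dixon's 95% critical value. Chance gives about 1 in 20 such sets. Klf9 was at 164.4 CPM in CD + Veh 2, where the next highest library was at 100 CPM. Cited2 was at 16.8 CPM in MD + PE 4, where the next lowest library was at 30.2 CPM. MD + PE 4 was the library with the highest Gm47761 and Gm42047. No library of Gm47761 or Gm50136 stood apart in this way.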

How the results depend on the processing

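Gm47761 and Gm50136 were higher in MD + PE than in MD + Veh under all 30 and 29 alternatives run, with log2 differences of 0.59 to 1.56 and 0.83 to 1.07, and adjusted p of 0.0275 to 0.713 and 0.00828 to 0.615. They passed the threshold in 3 and 5 of these. Gm47761 passed with DESeq2 (1.24), with a replicate block (1.31) and without MD + Veh 4 (1.56, adjusted p = 0.0346). Gm50136 passed with DESeq2 (0.98), with only the 2 groups compared (0.98), with a replicate block (0.93) and without CD + PE 1 (0.96, adjusted p = 0.0298) or CD + PE 2 (0.96, adjusted p = 0.0402). Replicate numbers did not pair the libraries (median r of deviations 0.03 over 27 pairs, 6 above 0.1). The block moved the calls from 147 to 178 in this comparison and from 397 to 419 in CD + PE against CD + Veh. Leaving out 1 library gave Gm47761 1.03 to 1.56 and Gm50136 0.83 to 1.07. The cause of these changes was not tested. With the library division as a covariate, all genes called fell from 397 to 37 in CD + PE against CD + Veh and from 147 to 33 in MD + PE against MD + Veh. The latter was 303 with DESeq2 and 73 with only the 2 groups compared. Without 1 library it ran from 56 (without MD + PE 3) to 243 (without MD + Veh 4), with 85 without MD + PE 2, 84 without MD + PE 4, 84 without MD + Veh 1 and 89 without MD + Veh 2. Calls in CD + PE against CD + Veh ran from 215 (without CD + Veh 4) to 426 (without MD + PE 4), with 235 without CD + Veh 1 and 240 without CD + PE 3. Neighbours called in CD + PE against CD + Veh numbered 1 with DESeq2 and 0 to 1 without 1 library. In MD + PE against MD + Veh they numbered 1 with DESeq2, and in MD + Veh against CD + Veh 1 to 2 without 1 library. The single change without 1 library was Klf9 without CD + Veh 2. As a description, the differences of Gm47761 from CD + Veh with the division as a covariate were 0.67 for CD + PE, 0.55 for MD + Veh and 1.15 for MD + PE. Of the 5 genes most like Gm47761, 2 were shared with Spearman's rho and 2 with libraries 46 to 57 alone, and of those most like Gm50136, 1 and 1. Depth limits the precision of Gm47761, with 12 counts in its lowest library.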
